A study of Rattus norvegicus with 12 samples.

Results

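Chemokines are small secreted proteins that draw leukocytes along a gradient and arrest them on vessel walls. Of the 10 chemokine genes chosen here by name (Ccl2, Ccl3, Ccl4, Ccl5, Ccl7, Ccl20, Cxcl1, Cxcl2, Cxcl10 and Cx3cl1), 9 had a probe with that single symbol in the array's annotation, 1 probe for each gene. Ccl4 had no such probe and was not analysed here. The genes were chosen with earlier results of these data known, so counts and medians over them are descriptive. The 9 genes were read among 18478 features, which were 9653 named genes and 8825 unnamed probes.

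The study asked how brain death of the donor alters gene expression in transplanted kidneys of inbred male Lewis rats, which served as donors and as recipients. There were 4 groups of 3 arrays, and each title names 1 kidney sample. The transplanted groups were grafts from brain dead donors at 1 h (replicates 21, 23 and 27) and grafts from living donors at 1 h (replicates 22, 24 and 25). The others were kidneys of brain dead donors at 0 h (replicates 1, 2 and 3) and normal kidneys at 0 h (replicates 1, 2 and 3). The titles do not say if each sample came from a different animal. In brain dead donors the intracranial pressure was raised gradually and the animals were then ventilated for 6 h, and since no group was ventilated alone, the effect of the ventilation cannot be told apart from that of brain death. Both kinds of graft were left kidneys that went through 30 min of operative ischemia, in recipients whose right kidney had been removed. Ages and any drugs are not given in the sources used here, and the titles call the living donors normal donors. Each value is the ratio of a kidney's RNA to 1 pooled RNA of 3 normal kidneys, given here on the log2 scale, where 0 means equal to the pool. No source used here says if the normal kidneys on the arrays are those in the pool; if they are, their values share RNA with the pool, which bears on every comparison with normal kidneys. The arrays therefore show changes and not absolute levels, and values of different genes are not compared as levels.

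The chemokines fall into classes by the spacing of their first cysteines. The CC class (Ccl) acts mostly on monocytes, macrophages and lymphocytes. Among the CXC class, Cxcl1 and Cxcl2 draw neutrophils through the receptor Cxcr2, while Cxcl10 is induced by interferons and draws activated T cells through Cxcr3. Cx3cl1 is anchored in the membrane and is carried by endothelium and other cells. In the kidney, tubular cells, endothelium and resident or incoming leukocytes can make chemokines after injury, and the transcription factor NF-kB switches many of them on in response to Il1b, Tnf or Toll-like receptor ligands.

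The sequences before the genes' start sites are shown because several of these genes moved together and NF-kB is a known regulator of the family. RefSeq promoter windows of the GRCr8 assembly were matched for 6 of the 9 measured genes, and each covers the 250 bases before the start, printed 5′ to 3′ on the gene's strand. Capitals mark matches, on either strand, to a 10-letter form of the NF-kB motif (GGG and TTCC with any 3 bases between them), and in Cxcl10 also to a form of the interferon-stimulated element (GAAA and GAAA with any 2 bases between them). The windows lie at chr14:17479322-17479571 on the minus strand for Cxcl1, chr14:17467256-17467505 on the minus strand for Cxcl2, chr14:15988816-15989065 on the plus strand for Cxcl10, chr10:67513845-67514094 on the plus strand for Ccl7 and chr9:91836909-91837158 on the plus strand for Ccl20.
Cxcl1: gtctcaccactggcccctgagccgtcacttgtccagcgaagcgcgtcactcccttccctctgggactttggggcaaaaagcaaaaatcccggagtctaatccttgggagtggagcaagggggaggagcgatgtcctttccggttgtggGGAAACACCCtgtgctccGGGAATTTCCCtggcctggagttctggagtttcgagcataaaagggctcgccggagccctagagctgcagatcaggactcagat
Cxcl2: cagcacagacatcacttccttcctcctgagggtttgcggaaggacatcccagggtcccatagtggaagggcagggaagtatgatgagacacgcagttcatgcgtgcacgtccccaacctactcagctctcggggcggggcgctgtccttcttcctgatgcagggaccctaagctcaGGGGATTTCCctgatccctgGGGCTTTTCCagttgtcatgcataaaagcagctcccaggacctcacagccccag
Cxcl10: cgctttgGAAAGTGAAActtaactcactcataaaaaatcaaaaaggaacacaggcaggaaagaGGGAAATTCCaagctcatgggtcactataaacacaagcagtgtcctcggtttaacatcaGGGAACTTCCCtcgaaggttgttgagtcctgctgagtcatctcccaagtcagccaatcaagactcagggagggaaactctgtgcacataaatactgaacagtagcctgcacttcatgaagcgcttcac
Ccl7: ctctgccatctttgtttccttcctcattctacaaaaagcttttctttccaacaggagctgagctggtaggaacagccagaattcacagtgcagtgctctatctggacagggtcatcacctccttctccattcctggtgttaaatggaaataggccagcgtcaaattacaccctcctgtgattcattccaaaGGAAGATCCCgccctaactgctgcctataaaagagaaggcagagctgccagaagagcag
Ccl20: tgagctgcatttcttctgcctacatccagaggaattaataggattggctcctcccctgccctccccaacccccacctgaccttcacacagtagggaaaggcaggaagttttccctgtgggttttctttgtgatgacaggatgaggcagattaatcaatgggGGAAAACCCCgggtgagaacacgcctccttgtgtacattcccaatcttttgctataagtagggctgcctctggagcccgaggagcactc

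At least 1 match to the 10-letter NF-kB form was found in 5 of the 6 windows, against 4.53% of all 33469 promoter windows of the same length. This motif was written down after the promoters had been seen, so the count describes these windows and carries no test. In Cxcl1 the matches began 102, 84 and 83 bases before the start, the last 2 of them overlapping on opposite strands. Cxcl2 had matches that began 74 and 54 bases before the start. In Cxcl10 they began 187, 128 and 127 bases before the start, again with the last 2 overlapping. Ccl7 had 1 match, at 59 bases, and Ccl20 had 1, at 89 bases. The window of Cx3cl1 (chr19:10242821-10243070, minus strand) held no match to it.

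Other motifs were searched on both strands as well. The shorter NF-kB form GGGNNTTCC, present in 5.09% of all windows, was found in Cxcl2 and Ccl20, where it overlaps the capitals. A looser form, GGG and CC with any 5 bases between them, is common, at 42.3% of windows, and takes in every match to the 10-letter form. The interferon-stimulated form, present in 3.41% of windows, was found in Cxcl10 only among the 6, beginning 243 bases before the start. TGANTCA, the AP-1 motif, occurred in Ccl7 and Cxcl10 (6.34% of all windows), and TTGCNNAA, a C/EBP motif, in Cxcl2 (9.22%). These are matches of letters and say nothing of binding in these kidneys.

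**Figure D1:**
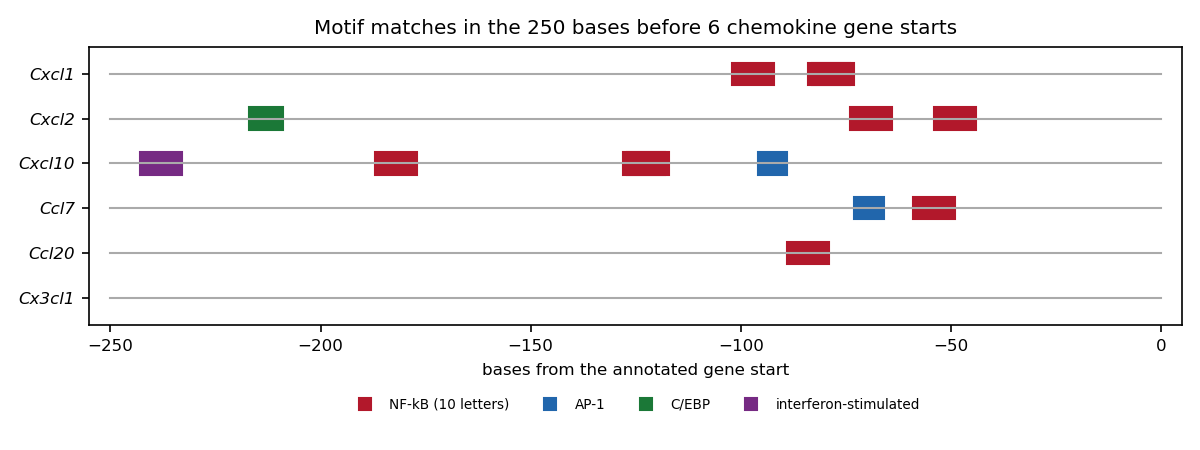
Positions of motif matches in the 250 bases before the start of 6 chemokine genes (x axis, bases before the start, y axis, gene, colours, motif). Matches to the NF-kB form lie within 187 bases of the start in 5 genes, and Cx3cl1 has none.

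On the arrays as a whole, medians lay between 0 and 0.0099 and no 2 arrays were copies of each other. Replicate 21 of the brain dead donor grafts stood apart: its mean correlation over all features was 0.851 with its own group and 0.780 with the other groups, the lowest of the 12 arrays on both. It also held the highest value of its group for 5 of the 9 chemokines, so results are given below with and without it where it matters.

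Differences were tested with limma over all features, and a gene was called at a Benjamini-Hochberg adjusted p under 0.05. In kidneys of brain dead donors, 4 of the 9 chemokines rose over normal kidneys (Ccl2, Cxcl1, Ccl7 and Cxcl10) and none fell, against 2.27% of all features called higher and 2.39% called lower. In grafts of brain dead donors, 3 of 9 rose over grafts of living donors (Ccl2, Cxcl1 and Ccl7) and none fell, against 2.02% of all features called higher and 4.74% called lower. Brain dead donor grafts set against normal kidneys had 5 of 9 called higher, the 4 above and Cxcl2, and none called lower, against 6.15% of all features called higher and 9.08% called lower. The 3 comparisons share arrays, so they are not separate lines of evidence.

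**Figure D2:**
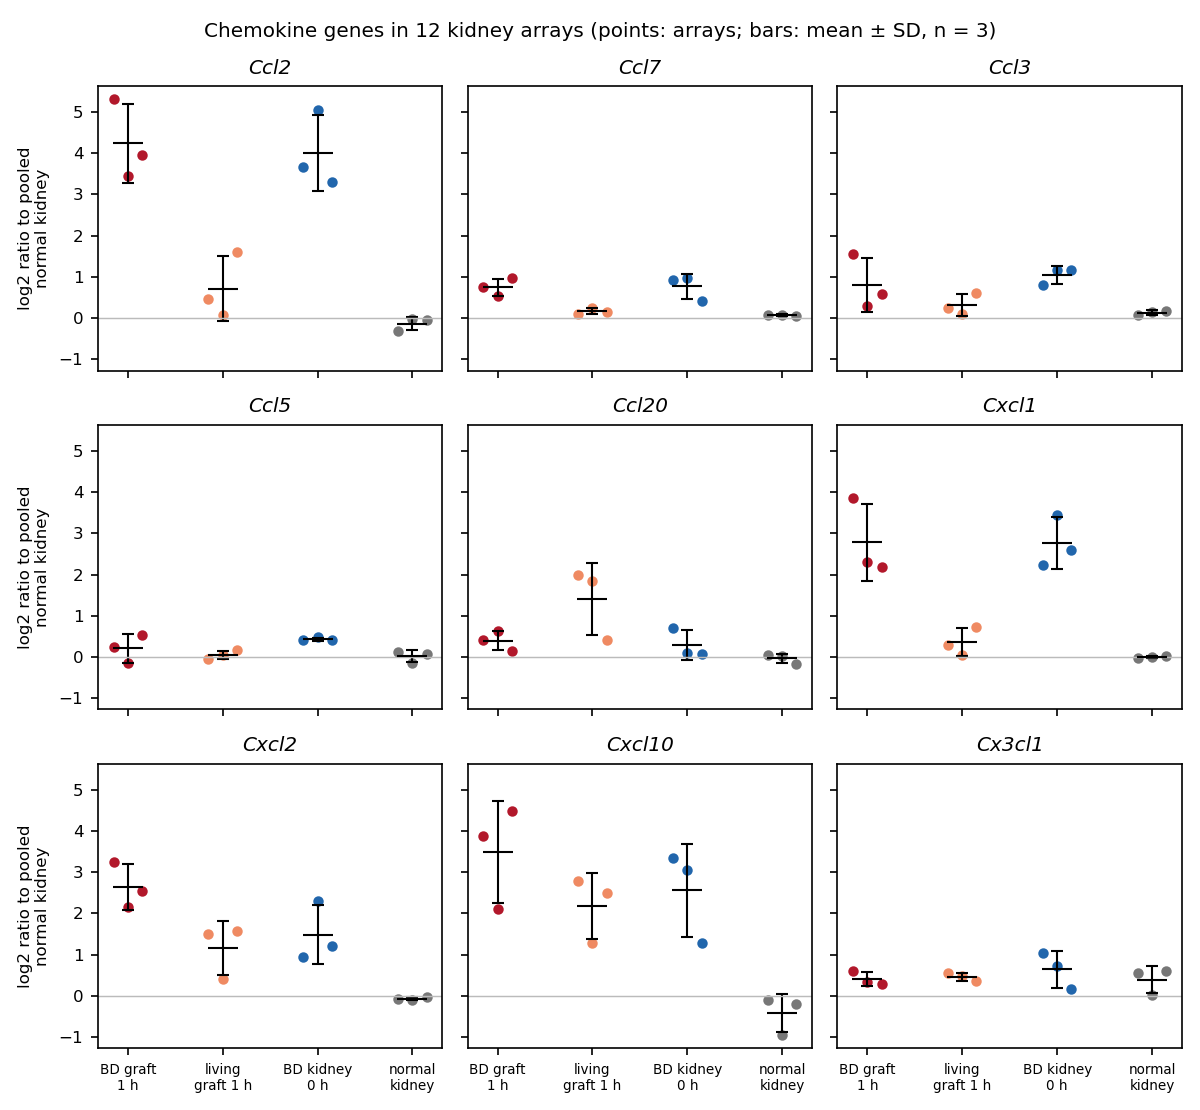
Log2 ratio to the normal kidney pool (y axis) of the 9 measured chemokines in each of the 12 arrays; BD stands for brain dead. Points are arrays and bars are group means ± SD (n = 3). For Ccl2 the brain dead donor grafts (3.45 to 5.32) and brain dead donor kidneys (3.31 to 5.05) sit above all living donor grafts and normal kidneys.

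Ccl2, the monocyte chemoattractant that acts through Ccr2, showed the largest difference of the 9 in both donor comparisons. Its log2 ratio was 5.32, 3.45 and 3.95 in brain dead donor grafts (replicates 21, 23 and 27), against 0.47, 0.08 and 1.60 in living donor grafts (22, 24 and 25). It was 3.65, 5.05 and 3.31 in brain dead donor kidneys, against -0.32, -0.03 and -0.05 in normal kidneys. The brain dead donor groups lay wholly above their counterparts, and living donor graft 25 was the highest array among the others. Brain dead donor kidneys were 17.6-fold higher than normal kidneys (log2 difference 4.14, 95% interval 2.86 to 5.42, adjusted p = 0.00608). Brain dead donor grafts were 11.5-fold higher than living donor grafts (3.53, 2.25 to 4.81, adjusted p = 0.00866), and still differed by 2.99 without replicate 21.

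The order of the group means of Ccl2 was 4.24 ± 0.96 for brain dead donor grafts, 4.0 ± 0.92 for brain dead donor kidneys, 0.71 ± 0.79 for living donor grafts and -0.13 ± 0.16 for normal kidneys (SD, n = 3 each). The first 2 of these differed by 0.24 (interval -1.04 to 1.52, adjusted p = 0.898). The last 2 differed by 0.85 (-0.43 to 2.13, adjusted p = 0.660), so a rise of Ccl2 in living donor grafts was not detectable with these arrays, while one of up to 2.13 lies inside the interval. Living donor grafts lay below brain dead donor kidneys by a log2 difference of -3.29 (adjusted p = 0.0245).

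Ccl7 is the neighbour of Ccl2 on chromosome 10 and shares its receptor. Its log2 ratios in brain dead donor grafts were 0.74, 0.54 and 0.96, against 0.10, 0.25 and 0.15 in living donor grafts. At 0 h, brain dead donor kidneys had 0.92, 0.97 and 0.42, against 0.08, 0.09 and 0.05 in normal kidneys. The groups did not overlap in either comparison, but the differences were much smaller than those of Ccl2: 0.70 (interval 0.38 to 1.02, 1.62-fold, adjusted p = 0.0280) for the donor kidneys and 0.58 (0.26 to 0.90, 1.50-fold, adjusted p = 0.0412) for the grafts. Both calls rest on few arrays. The call in donor kidneys was lost without brain dead donor kidney 1 or 2 or any 1 normal kidney, with an adjusted p of up to 0.114. The call between grafts was lost without brain dead donor graft 21 or 27, any living donor graft or any normal kidney, with an adjusted p of up to 0.121.

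Ccl3, made by macrophages and other leukocytes, had log2 ratios of 1.55, 0.31 and 0.58 in brain dead donor grafts, against 0.24, 0.09 and 0.60 in living donor grafts. At 0 h, brain dead donor kidneys had 0.79, 1.18 and 1.16, against 0.07, 0.15 and 0.18 in normal kidneys. The graft groups overlapped and differed by 0.50 (adjusted p = 0.336), with brain dead donor graft 21 the highest of the grafts. In donor kidneys the groups did not overlap, yet the difference of 0.91 (interval 0.29 to 1.52) had an adjusted p of 0.0987 and was not called; it passed when replicate 21 of the grafts was left out of the fit.

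Ccl5, which T cells and injured tubules are known to make, moved little. Its log2 ratios in brain dead donor grafts were 0.24, -0.15 and 0.54, against -0.06, 0.05 and 0.16 in living donor grafts. The values were 0.41, 0.48 and 0.42 in brain dead donor kidneys, against 0.13, -0.15 and 0.08 in normal kidneys. The donor kidneys lay close together and above every normal kidney, and their difference of 0.41 (interval 0.08 to 0.75) had an adjusted p of 0.168. Between grafts the groups overlapped and the difference was 0.16 (adjusted p = 0.590).

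Ccl20, the ligand of Ccr6, ran the other way between grafts only. In brain dead donor kidneys it lay above normal kidneys without overlap, by 0.33 (adjusted p = 0.773). Its log2 ratio was 0.41, 0.63 and 0.16 in brain dead donor grafts, against 1.99, 1.85 and 0.40 in living donor grafts. It was 0.71, 0.10 and 0.08 in brain dead donor kidneys, against 0.05, 0.02 and -0.16 in normal kidneys. Living donor grafts 22 and 24 were above all other arrays, and replicate 25 lay among the brain dead donor grafts. With all arrays, no comparison of Ccl20 was called: living donor grafts over normal kidneys gave 1.44 (interval 0.63 to 2.26, adjusted p = 0.145) and brain dead over living donor grafts gave -1.01 (-1.82 to -0.20, adjusted p = 0.140).

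The result for Ccl20 turned on living donor graft 25. Without that array, living donor grafts were higher than normal kidneys by 1.95 (adjusted p = 0.00459), brain dead donor grafts were below living donor grafts by -1.52 (adjusted p = 0.0115), and living donor grafts were above brain dead donor kidneys by 1.62 (adjusted p = 0.0128). The same 3 differences passed when arrays were weighted by their agreement with the rest (1.80, -1.33 and 1.61). Replicate 25 held the highest value of its group for 5 of the 9 chemokines, and its low Ccl20 was an exception to that.

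Cxcl1 draws neutrophils. It had log2 ratios of 3.85, 2.31 and 2.19 in brain dead donor grafts, against 0.30, 0.05 and 0.72 in living donor grafts. In brain dead donor kidneys they were 2.23, 3.45 and 2.59, against -0.01, -0.00 and 0.02 in normal kidneys. Every array of brain dead origin was above every other array. The rise was 6.78-fold in brain dead donor kidneys over normal kidneys (log2 difference 2.76, interval 1.80 to 3.72, adjusted p = 0.0103). It was 5.39-fold in brain dead over living donor grafts (2.43, 1.47 to 3.39, adjusted p = 0.0117), and 1.90 on the log2 scale without replicate 21. The means of brain dead donor grafts (2.78 ± 0.93) and brain dead donor kidneys (2.76 ± 0.63; SD, n = 3 each) differed by 0.02, with an interval of -0.94 to 0.99. Those of living donor grafts (0.35 ± 0.34) and normal kidneys (-0.00 ± 0.01) differed by 0.35, with an interval of -0.61 to 1.32.

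Cxcl2 acts on the same receptor and lies beside Cxcl1 on chromosome 14, but its order across groups was graded. In brain dead donor grafts it had 3.25, 2.15 and 2.55, against 1.51, 0.41 and 1.57 in living donor grafts. In brain dead donor kidneys it had 0.95, 2.30 and 1.22, against -0.08, -0.11 and -0.03 in normal kidneys. Group means were 2.65 ± 0.56 for brain dead donor grafts, 1.49 ± 0.71 for brain dead donor kidneys, 1.16 ± 0.65 for living donor grafts and -0.07 ± 0.04 for normal kidneys (SD, n = 3 each). Of the steps between neighbours in this order, none passed after adjustment: 1.16 (adjusted p = 0.287) between brain dead donor grafts and kidneys and 1.23 (adjusted p = 0.287) between living donor grafts and normal kidneys. The comparison that passed for Cxcl2 was brain dead donor grafts over normal kidneys, at 6.58-fold (2.72, interval 1.80 to 3.63, adjusted p = 0.00259).

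The donor comparisons of Cxcl2 lay just beyond the threshold: 1.56 (interval 0.64 to 2.48, adjusted p = 0.0638) in donor kidneys and 1.48 (0.57 to 2.40, adjusted p = 0.0619) between grafts, with no overlap of the groups in either. Without brain dead donor kidney 1 the difference in donor kidneys was 1.83 and passed, and without brain dead donor kidney 2 the difference between grafts passed.

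Cxcl10 was above normal kidney in all 3 other groups. Its log2 ratio was 3.89, 2.10 and 4.48 in brain dead donor grafts, against 2.79, 1.28 and 2.50 in living donor grafts. It was 3.36, 3.04 and 1.28 in brain dead donor kidneys, against -0.10, -0.96 and -0.19 in normal kidneys. The 2 kinds of graft overlapped, and each of the 3 groups lay wholly above the normal kidneys. Brain dead donor grafts were 15-fold above normal kidneys (3.91, interval 2.34 to 5.48, adjusted p = 0.00571), a call kept when each of the 12 arrays in turn was left out. Brain dead donor kidneys were 7.87-fold above normal kidneys (2.98, 1.41 to 4.55, adjusted p = 0.0435).

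The spread of Cxcl10 within groups was the widest of the 9 in 2 of the 3 non-normal groups, with group means of 3.49 ± 1.24 in brain dead donor grafts, 2.19 ± 0.80 in living donor grafts, 2.56 ± 1.12 in brain dead donor kidneys and -0.42 ± 0.47 in normal kidneys (SD, n = 3 each). Its call in donor kidneys held in 3 of the 12 fits that left out 1 array. It was lost without brain dead donor kidney 1 or 2, brain dead donor graft 21, any living donor graft or any normal kidney, and the highest adjusted p was 0.161. Living donor grafts exceeded normal kidneys by 2.61 (interval 1.04 to 4.18), which was not called (adjusted p = 0.174), and brain dead donor grafts exceeded living donor grafts by 1.30 (-0.27 to 2.87, adjusted p = 0.329).

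Cx3cl1, the ligand of Cx3cr1, was slightly above the pool in every array, the normal kidneys included. It had 0.60, 0.35 and 0.28 in brain dead donor grafts, against 0.55, 0.49 and 0.37 in living donor grafts, and 1.05, 0.73 and 0.17 in brain dead donor kidneys, against 0.56, 0.02 and 0.60 in normal kidneys. All groups overlapped. The grafts differed by -0.06 (interval -0.55 to 0.43, adjusted p = 0.904) and the donor kidneys by 0.25 (adjusted p = 0.671).

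**Figure D3:**
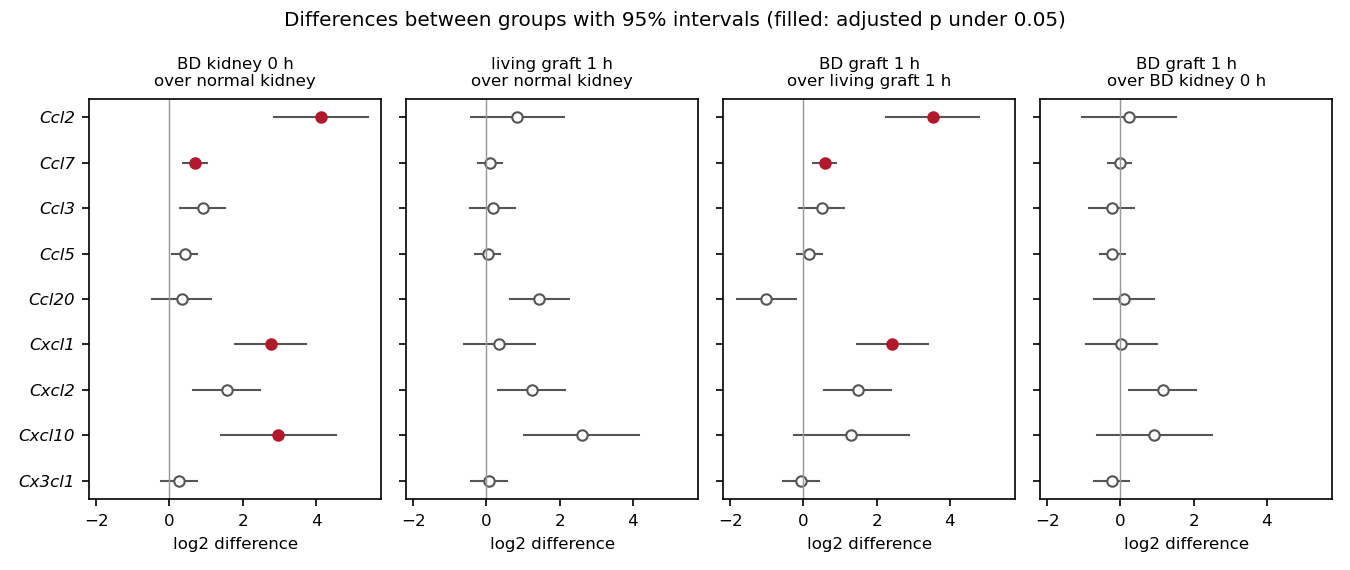
Log2 differences (x axis) of the 9 chemokines (y axis) in the comparisons named in the panel titles, where BD stands for brain dead; points are estimates from limma, filled where called, and bars 95% intervals. Ccl2 and Cxcl1 lie far to the right of 0 in both donor comparisons, and Ccl20 lies to the left of 0 between grafts.

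The time comparisons gave fewer calls. Of the 9 chemokines, 0 were called by limma between living donor grafts and normal kidneys, where 0.541% of all features were called higher and 0.189% lower. At an unadjusted p under 0.05 there were 3 (Ccl20, Cxcl2 and Cxcl10), beside 2013 of the 18478 features, and with array weights 1 was called (Ccl20). All 3 living donor grafts were above all 3 normal kidneys for 6 of the 9, against 8.83% of all features. Between brain dead donor grafts and brain dead donor kidneys, 0 of 9 were called, where 0.0379% of features were called higher and 0.0162% lower. Cxcl2 alone had an unadjusted p under 0.05 there, beside 2423 of the 18478 features, array weights called 0, and no chemokine separated the 2 groups, where 18.8% of all features did in one direction or the other.

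Living donor grafts set against brain dead donor kidneys, a comparison in which both donor and time differ, had 2 of 9 called lower (Ccl2 and Cxcl1), against 0.655% of all features called lower and 1.36% called higher. Neither call held without each array in turn: that of Ccl2 was lost without brain dead donor kidney 2 or living donor graft 22 or 24 (adjusted p up to 0.0879), and that of Cxcl1 without brain dead donor kidney 2 or 3, living donor graft 22 or 24, or normal kidney 1 (up to 0.103).

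Groups that do not overlap were counted as well. All brain dead donor kidneys were above all normal kidneys for 8 of the 9 chemokines, with Cx3cl1 the exception, against 10.9% of all features. All brain dead donor grafts were above all living donor grafts for 4 of 9 (Ccl2, Ccl7, Cxcl1 and Cxcl2), against 12.1%. The median log2 difference of the 9 was 0.91 in donor kidneys, where that of all features was -0.00, and 0.58 between grafts, where that of all features was 0.01.

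Whether the effect of the donor differed between 1 h after transplantation and 0 h was tested as an interaction. By limma it was called for 0 of the 9 chemokines and 0 of all features. Ccl20 was the 1 chemokine of 9 with an unadjusted p under 0.05, beside 964 of the 18478 features, at -1.34 (interval -2.49 to -0.20, adjusted p = 0.905). The estimate for Ccl2 was -0.61 (interval -2.42 to 1.2), and that for Cxcl10 was -1.68 (-3.90 to 0.54). These intervals are wide, so a sizeable difference between the times was not detectable.

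The replicate with the highest value of its group was counted for each chemokine, and whether replicates varied together was not tested. Among normal kidneys, replicate 3 was highest for 4 of the 9, replicate 1 for 3 and replicate 2 for 2. Among living donor grafts, replicate 25 was highest for 5, replicate 22 for 3 and replicate 24 for 1. Brain dead donor kidney 2 held the highest value of its group for 6 of the 9 chemokines and replicate 1 for the other 3. Among brain dead donor grafts, replicate 21 was highest for 5, replicate 27 for 3 and replicate 23 for 1. Ccl2, Cxcl1, Cxcl2, Ccl3 and Cx3cl1 peaked in replicate 21, while Cxcl10, Ccl7 and Ccl5 peaked in replicate 27.

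The named genes most like each chemokine were found by the root mean square difference of log2 ratio over the 12 arrays, out of 9648 genes. Nearest to Cxcl1 were Il1b (0.53) and Il6 (0.75), both inflammatory cytokines. Nearest to Ccl2 were Rnd1 (0.73), a small GTPase, and Sele (0.93), the endothelial adhesion molecule E-selectin. Cxcl10 was nearest to Cebpd (0.72), a transcription factor, and Ifit3 (0.77), an interferon-induced gene. Ccl7 was nearest to Irf1 (0.11), a transcription factor induced by interferon, and Csf1 (0.13), the macrophage growth factor. The genes nearest to Ccl20 were Ddit3 (0.38), a stress-response transcription factor, and Nr4a2 (0.42), an immediate early gene.

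The likeness is a description over arrays that share 1 pool, and small values are common where a gene hardly moved. Ccl5 had 2879 genes within 0.3, led by Tsfm (0.14) and Rap1b (0.14), and Cx3cl1 had 450, led by Sptbn1 (0.16) and Asmt (0.16). Ccl7 had 170 within 0.3, so Irf1 and Csf1 were far from alone in lying near it. Ccl3 had 4 within 0.3, led by Nfkbiz (0.29), an NF-kB cofactor, and Nrarp (0.29). Cxcl2 had none within 0.3, and its nearest were Tmem252 (0.54) and Rlim (0.62).

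Of 28 other chemokines listed, 22 were measured. In brain dead donor kidneys over normal kidneys 1 of them rose and none fell: Cxcl16, the ligand of Cxcr6, by 0.57 ± 0.11 (SE, adjusted p = 0.0226), a call lost without brain dead donor kidney 2 or 3 or normal kidney 2 (0.45 to 0.58). In that comparison 6 of the 22 had an unadjusted p under 0.05, of which Cklf was lower (-0.31) and the others higher, and array weights called 4. Between brain dead and living donor grafts limma called 0 of 22, with or without array weights, and 5 had an unadjusted p under 0.05. Of these, Ccl19, Cxcl6 and Cxcl16 were higher, and Xcl1 (-0.88) and Cklf (-0.26) lower. Brain dead donor grafts over normal kidneys had 3 called higher. They were Ccl19, a ligand of Ccr7, at 1.85 ± 0.38 (adjusted p = 0.00988), Cxcl16 at 0.56 ± 0.11 (adjusted p = 0.00818) and Cxcl6 at 0.40 ± 0.11 (adjusted p = 0.0314, lost without brain dead donor graft 21 or 27 or any normal kidney, at 0.31 to 0.41).

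Of 23 chemokine receptors, 14 were measured. Ackr3, a scavenging receptor that takes up Cxcl12, was the 1 receptor called in brain dead donor kidneys over normal kidneys, higher by 1.11 ± 0.12 (SE, adjusted p = 0.00266). Its log2 ratio was 0.89, 0.97 and 1.13 in brain dead donor grafts, against 0.57, 0.61 and 0.36 in living donor grafts. It was 0.97, 0.82 and 0.55 in brain dead donor kidneys, against -0.46, -0.23 and -0.31 in normal kidneys. All 3 other groups were thus above the normal kidneys, living donor grafts by 0.84 ± 0.12 (adjusted p = 0.0144, lost without living donor graft 22 or 24 or normal kidney 1 or 3, at 0.78 to 0.86). Brain dead over living donor grafts gave 0.49 ± 0.12 (adjusted p = 0.0387). That call was lost without any 1 graft, brain dead donor kidney 2, or normal kidney 2 or 3, at 0.41 to 0.54.

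Among 21 measured genes for inducing cytokines and their receptors, 5 rose and 1 fell in brain dead donor kidneys over normal kidneys, and 4 rose and 1 fell in brain dead over living donor grafts. The gene that fell was Il33 in both, at -0.36 ± 0.08 in donor kidneys (SE, adjusted p = 0.0437). Its call was kept in 4 of the 12 fits that left out 1 array there, and in 6 of 12 between grafts (-0.42 to -0.27). Tnf was not called in donor kidneys, at -0.07 (adjusted p = 0.908), and the groups overlapped. Il1b, which induces Cxcl1 and Ccl2 in many cells, had log2 ratios of 3.06, 2.42 and 2.75 in brain dead donor grafts, against 1.03, 0.30 and 1.58 in living donor grafts. It had 2.54, 2.91 and 3.31 in brain dead donor kidneys, against -0.32, -0.22 and 0.16 in normal kidneys. Both differences passed, at 1.77 ± 0.31 (SE, adjusted p = 0.0118) between grafts and 3.05 ± 0.31 (adjusted p = 0.00229) in donor kidneys, and both calls held when each array in turn was left out. Csf1 rose by 0.59 ± 0.11 between grafts (adjusted p = 0.0141) and by 0.60 ± 0.11 in donor kidneys (adjusted p = 0.0187). The graft call of Csf1 was lost without brain dead donor graft 27 or living donor graft 22 (0.54 and 0.55), and the donor kidney call without brain dead donor kidney 2 or normal kidney 2 or 3 (0.53 to 0.61). In living donor grafts over normal kidneys 0 of the 21 were called by limma, 3 had an unadjusted p under 0.05, and array weights called 1.

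Among 15 measured NF-kB factors and feedback genes, 5 rose and none fell in brain dead donor kidneys over normal kidneys, and 2 rose and none fell in brain dead over living donor grafts. With array weights the called genes numbered 8 in donor kidneys and 1 between grafts. The graft calls were Birc3, at 1.60 ± 0.40 (SE, adjusted p = 0.0416), and Ripk2, a kinase upstream of NF-kB, at 0.64 ± 0.13 (adjusted p = 0.0208). That of Birc3 was lost without brain dead donor graft 21 or 27, any living donor graft, any normal kidney or brain dead donor kidney 2 (1.37 to 1.83 over the 12 fits), and that of Ripk2 without brain dead donor graft 21 or 27 or living donor graft 22 or 24 (0.56 to 0.66). Map3k8, a kinase upstream of NF-kB and MAP kinases, rose by 2.35 ± 0.27 in donor kidneys (SE, adjusted p = 0.00323), and Birc3, an inhibitor of apoptosis, by 3.34 ± 0.40 (adjusted p = 0.00377). Nfkbia, which encodes the inhibitor that NF-kB itself induces, was the 1 gene of this list called in living donor grafts over normal kidneys, at 2.42 ± 0.21 (adjusted p = 0.000640). Its log2 ratio was 2.92, 2.53 and 2.43 in brain dead donor grafts, against 3.18, 2.42 and 2.60 in living donor grafts. In brain dead donor kidneys it was 1.89, 2.36 and 1.83, against 0.33, 0.27 and 0.35 in normal kidneys. Unlike Ccl2 and Cxcl1, whose values in living donor grafts stayed at or below 1.60, Nfkbia was high in all 3 groups other than normal; the difference between these patterns was not tested.

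Of 13 measured interferon response genes, limma called 0 in brain dead donor kidneys over normal kidneys, where 4 had an unadjusted p under 0.05 and array weights called 3. Between brain dead and living donor grafts it called 0, where 1 had an unadjusted p under 0.05 and array weights called 0. Ifit3 was the 1 called in brain dead donor grafts over normal kidneys, at 2.92 ± 0.67 (SE, adjusted p = 0.0163), lost without brain dead donor graft 27 (2.45) or normal kidney 2 (2.66).

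**Figure D4:**
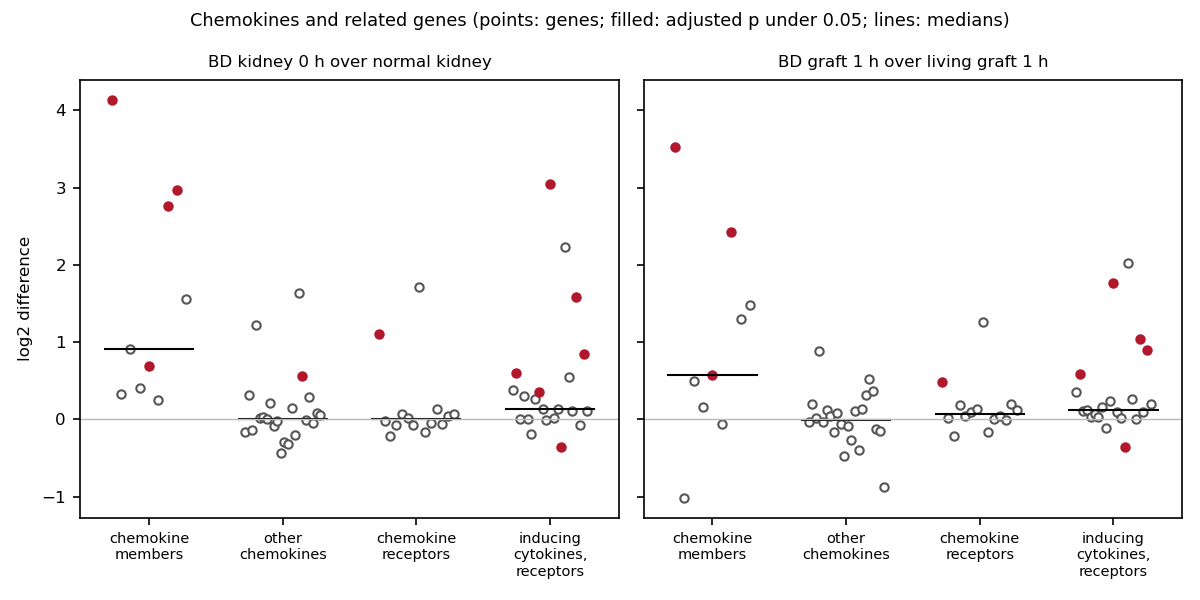
Log2 differences of the genes in each related list (one point per gene) beside the 9 chemokines, in the comparisons named in the panel titles, where BD stands for brain dead; filled points were called and lines mark list medians. The medians of the chemokines, 0.91 in donor kidneys and 0.58 between grafts, lie above those of the 3 other lists shown. All lists were chosen with earlier results of these data known, so the order of the medians carries no test.

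The arrays measured RNA of whole kidney, in which fewer cells of a type and less RNA per cell cannot be told apart, and leukocyte markers were read beside the chemokines. Of 14 neutrophil markers, 8 were measured. Their mean log2 ratio was 0.18 to 0.93 in brain dead donor grafts, against -0.13 to 0.02 in living donor grafts, and 0.67 to 1.41 in brain dead donor kidneys, against -0.19 to 0.04 in normal kidneys. In donor kidneys 1 of the 8 rose: S100a9, an abundant neutrophil and monocyte protein, by 3.47 ± 0.50 (SE, adjusted p = 0.00729). In that comparison 6 of the 8 had an unadjusted p under 0.05, beside 3273 of all features, and array weights called 1. The median log2 difference of the list was 0.69 there. Between grafts limma called 0 of the 8, and 2 were called with array weights. At an unadjusted p under 0.05 there were 2 of the 8, beside 3885 of all features. S100a9 stood at 1.22, 1.98 and 3.16 in brain dead donor grafts, against 0.00, 0.71 and 0.30 in living donor grafts. It stood at 4.48, 3.07 and 2.84 in brain dead donor kidneys, against -0.04, -0.01 and 0.04 in normal kidneys. The list mean, like Cxcl1, was higher in every array of either brain dead donor group than in any living donor graft or normal kidney. That mean includes S100a9, and a mean without S100a9 was not examined, so the separation may not hold for the other markers. Between grafts the median log2 difference of the 8 was 0.14, where that of all features was 0.01. In the list mean, living donor grafts and normal kidneys overlapped. For both Cxcl1 and Cxcl2 all living donor grafts lay above all normal kidneys, as for 8.83% of all features. Neither difference was called by limma (adjusted p = 0.835 and 0.287). For Cxcl1 the lowest living donor graft was at 0.05 and the highest normal kidney at 0.02. Brain dead donor graft 21 had the highest Cxcl1 of its group and the lowest S100a9. The part of these markers in the chemokine differences was not tested.

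Of 14 monocyte and macrophage markers, 13 were measured, and limma called 0 in either donor comparison, with 3 at an unadjusted p under 0.05 in each. Array weights called 3 in donor kidneys and 1 between grafts. Their mean was 0.13 to 0.35 in brain dead donor grafts, against 0.09 to 0.26 in living donor grafts, and 0.13 to 0.23 in brain dead donor kidneys, against -0.03 to 0.12 in normal kidneys. Against normal kidneys, brain dead donor grafts had 2 of the 13 higher, C1qb by 0.94 ± 0.20 (SE, adjusted p = 0.0111) and Cd14 by 0.37 ± 0.10 (adjusted p = 0.0317). Of 11 measured T and NK cell markers, 1 rose in donor kidneys (Gzma, 0.82 ± 0.15, adjusted p = 0.0189) and 1 between grafts (Cd3d, 0.21 ± 0.05, adjusted p = 0.0352). Of all features, 2.27% and 2.02% were called higher there. The median log2 difference of the 11 was 0.08 in donor kidneys and -0.04 between grafts. Gzma was lost without brain dead donor kidney 2 or 3 or normal kidney 2 or 3 (0.78 to 0.89). Cd3d was lost without brain dead donor graft 21 or 27, any living donor graft, brain dead donor kidney 2 or 3, or normal kidney 2 (0.19 to 0.22). Since the pool is kidney RNA too, ratios near 0 do not show the level of kidney markers, but changes of them can be read. The mean of 8 proximal tubule markers was -0.46 to -0.30 in brain dead donor grafts, against -0.41 to -0.24 in living donor grafts, and -0.22 to 0.03 in brain dead donor kidneys, against -0.23 to -0.05 in normal kidneys. None of the 8 was called by limma in either donor comparison (with an unadjusted p under 0.05, 1 in donor kidneys and 0 between grafts, and 0 in each with array weights). Of the 8, 2 fell in brain dead donor grafts over normal kidneys: Lrp2, the endocytic receptor megalin, at -0.54 ± 0.12 (SE, adjusted p = 0.0128), and Slc34a1, a phosphate transporter, at -0.45 ± 0.12 (adjusted p = 0.0263). Slc34a1 lost its call without brain dead donor graft 23 or 27 or normal kidney 1 or 3 (-0.48 to -0.35). Of 4 podocyte markers, Podxl fell in brain dead donor grafts, at -0.61 ± 0.14 against living donor grafts (adjusted p = 0.0346) and at -0.75 ± 0.14 against normal kidneys (adjusted p = 0.00801). It was the 1 marker of the 4 called in each, where 4.74% and 9.08% of all features were called lower. The list as a whole did not fall, with a median log2 difference of 0.08 in both. The graft call of Podxl was lost without brain dead donor graft 21 or 27, any living donor graft, any normal kidney or brain dead donor kidney 3 (-0.69 to -0.44). The part of these changes in the chemokine differences was not tested.

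**Figure D5:**
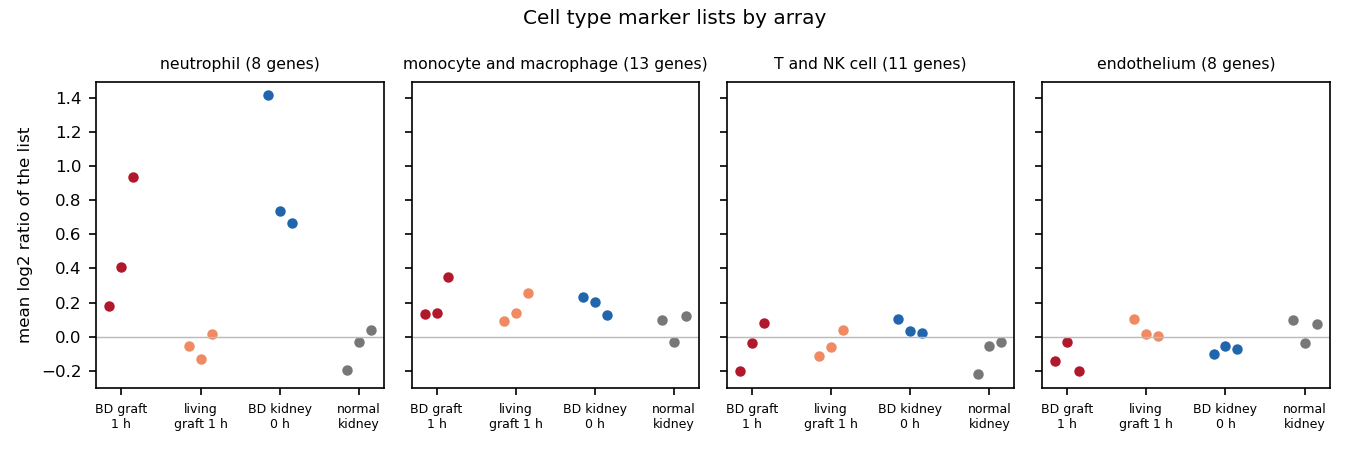
Mean log2 ratio to the normal kidney pool (y axis) of neutrophil, monocyte and macrophage, T and NK cell and endothelial marker lists by array, grouped by brain dead (BD) donor graft, living donor graft, BD donor kidney and normal kidney. The neutrophil list lies at 0.67 to 1.41 in brain dead donor kidneys and at -0.19 to 0.04 in normal kidneys.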

How the data were processed

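Values were the deposited log10 ratios of 12 two-colour Agilent rat arrays. Per the labels, each kidney's RNA carried Cy3 and the pool of 3 normal kidneys Cy5, with no dye swap, and the authors used Agilent Feature Extraction and GeneSpring 7.0 (lowess, per spot and per chip). The log10 reading rests on the values, which end at 2 on either side, a ratio of 100, and the direction on the design text. They were multiplied by 3.322 to give log2 ratios. No intensities were used, so dim or saturated spots, and cross-hybridisation between related chemokines, were not assessed. Depth has no meaning here, and 3 arrays a group limit the precision. Exact zeros (0.702% of values, none on the chemokines) were kept. The sources used here give no slides or scan dates.

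The groups were taken from the titles, since the description is the same on all arrays. The labels tell no more of the animals, and p-values then reflect only the spread among these 3 arrays a group, which may be technical. For each gene, limma shared 1 spread among the 4 groups, though the groups were unequal. The SD of Cxcl1 was 0.01 in normal kidneys and 0.93 in brain dead donor grafts. A tight group can thus lower the p-values of comparisons between wider ones. Of 21575 probes, 12750 had 1 symbol, 5 several and 8820 none; 12720 of 12750 identifiers were found in RefSeq. Probes of 1 symbol were averaged. limma 3.58.1 in R 4.3.3 fitted all 4 groups (8 residual degrees of freedom), two-sided, with Benjamini-Hochberg adjustment over 18478 features, and was tested on simulated data. The chemokines, lists and tests were chosen with earlier results of these data known. All measured chemokines are named. From each list and comparison up to 3 called genes of smallest p could be named, and likeness names the 2 nearest genes. Tnf, Il33, Xcl1 and Cklf were named in addition, after their values had been seen. Alternatives were robust and weighted fits, quantile and median scaling, zeros as missing, single probes, compared groups alone, a replicate block and leaving out each array.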

Additional observations from a re-analysis of the deposited data

How the results depend on the processing

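Over all alternatives, the chemokine differences called with all arrays kept their call in 224 of 270 refits and those not called passed in 19 of 927; where either setting gave a call, the sign changed in 0. Robust fitting, median centring, zeros as missing and single probes left every count of called chemokines as it was. In brain dead donor kidneys over normal kidneys the count of 4 became 7 with array weights and 2 with quantile scaling, and 2 to 4 without 1 array. Brain dead over living donor grafts went to 1 with quantile scaling and 1 with the compared groups alone, and 2 to 4 without 1 array, from 3. Living donor grafts over brain dead donor kidneys gave 6 with array weights, 0 with the groups alone and 0 to 3 without 1 array, instead of 2. Living donor grafts over normal kidneys gave 1 with array weights and 0 to 1 without 1 array, instead of 0. Brain dead donor grafts over normal kidneys gave 5 throughout, and brain dead donor grafts over brain dead donor kidneys and the interaction 0. The cause of these changes was not tested.

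Quantile scaling took Cxcl1 to 2.65 (adjusted p = 0.0512) in donor kidneys and to 2.51 (adjusted p = 0.101) between grafts. With the compared groups alone, Ccl2 between grafts stayed called (adjusted p = 0.0498) and Cxcl1 did not (0.0658). Ccl2 and Cxcl1 kept both donor calls when each array in turn was left out, Ccl2 at 3.61 to 4.48 in donor kidneys and 2.99 to 3.97 between grafts, Cxcl1 at 2.41 to 3.02 and 1.90 to 2.73.

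Brain dead donor kidneys and normal kidneys share the numbers 1 to 3, but nothing says that a number marks a shared animal or day. Deviations of same-numbered arrays correlated with r of 0.33, 0.10 and 0.03, and not every array correlated best with its own number, so the numbers were not taken as pairs. With the replicate block on these 2 groups, 0 of 9 chemokines were called (adjusted p = 0.122 for Ccl2 and Cxcl1), against 3 on the same 6 arrays without the block. The graft groups share no numbers.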

Other observations

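Only the closest neighbours of the 9 in the gene order are given here, 8 other chemokine genes, chosen after their values were seen. limma called 0 of these 8 in either donor comparison, and 1, Ccl12 in donor kidneys, had an unadjusted p under 0.05. The 8 do not stand for all other chemokines measured. Cxcl6, not among them, lay above without overlap in donor kidneys (0.29, adjusted p = 0.166) and between grafts (0.37, adjusted p = 0.0708). Cxcl16 also lay wholly above in both, and Cklf wholly below. In the RefSeq gene order of GRCr8, Ccl2 and Ccl7 are followed on chromosome 10 by Ccl11 and Ccl12, whose log2 differences in brain dead donor kidneys over normal kidneys were -0.17 (adjusted p = 0.612) and 0.31 (adjusted p = 0.204). Ccl9 and Ccl6, between Ccl5 and Ccl3, gave -0.30 (adjusted p = 0.392) and -0.43 (adjusted p = 0.392). Near Cxcl1 and Cxcl2 on chromosome 14, Cxcl3, another neutrophil chemokine, gave -0.00, and Cxcl11, the neighbour of Cxcl10 that shares its receptor Cxcr3, gave 0.15 (adjusted p = 0.918). Ccl17 and Ccl22 on either side of Cx3cl1 on chromosome 19 gave -0.14 and 0.04. Between brain dead and living donor grafts, the 8 genes lay between -0.47 for Ccl6 and 0.53 for Cxcl3. Whether these probes were bright enough to show a change is not known, since no intensities were used.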
